A study of Arabidopsis thaliana with 50 samples.

Results

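Glutathione S-transferases (GSTs) are a family of enzymes that join the tripeptide glutathione to reactive or foreign compounds. The family was taken here as every gene whose description in the authors' deposited table contains the name of the enzyme. That gave 48 of the 18231 genes listed in that table. By their symbols, 24 belonged to the tau class (GSTU), 10 to the phi class (GSTF), 3 to theta (GSTT), 2 to zeta (GSTZ), 2 to the dehydroascorbate reductases (DHAR) and 1 to lambda (GSTL). The other 6 carry no class in their symbol.

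The tau and phi classes are largely specific to plants, and many of their genes are known to respond to herbicides, pathogens, oxidants and the defence hormone salicylic acid. Conjugates made by these enzymes are moved into the vacuole by ABC transporters of the C group. Dehydroascorbate reductases recycle ascorbate at the expense of glutathione, zeta enzymes act in the breakdown of tyrosine, and theta enzymes have glutathione peroxidase activity.

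Arabidopsis thaliana plants in the Col-0 background were grown for 7 weeks under 8 h of light per day, and their leaves were cut into an apical and a basal part. The line called b'γ below is pp2a-b'γ, a mutant for a B' subunit that directs protein phosphatase 2A and is known to restrain defence signalling. The line pp2a-b'γζ (b'γζ) also affects the B'ζ subunit, and pp2a-b'γ sid2 (b'γ sid2) also affects ICS1, which makes salicylic acid. In the complemented plants, the P35S:PP2A-B'γ construct was put into b'γ (complemented b'γ), with B'γ behind a constitutive promoter that is active in most cell types, and the plants set against all lines were wild type. Every line but wild type carries the pp2a-b'γ lesion, and the labels do not say how many transgenic lines the complemented plants represent. Per line and leaf part there were 5 pools of 7 leaf parts, 50 libraries in all. Yellowing and cell death were seen in the apical b'γ pools and not in the basal ones.

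The authors' deposited table gives, for apical parts, the log2 fold change of every line relative to wild type. It adds p-values for line (genotype), leaf part and their interaction, 1 set for each gene over all 5 lines. All values below are differences between lines, not levels. Every listed gene has a corrected genotype p under 0.05, so transferase genes that missed it have no value here. No library's own values were used here, which leaves no SD between pools and an unknown depth. The 4 comparisons with wild type share the same 5 wild-type pools.

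"Higher" and "lower" with a count mean a deposited value of at least 2-fold, which is a log2 value of 1 in size. In a second, stricter step (largest-error test below), each gene was given the largest residual variance that its deposited p-values and 4 fold changes allow, and contrasts were tested two-sided on 40 residual degrees of freedom with Benjamini-Hochberg adjustment over the 25801 genes tested by the authors. "Rose" and "fell" are kept for genes past both. Standard errors (SE) and 95% intervals below are the largest so allowed, for 5 pools in each group. The test and these errors assume that the deposited p-values came from an analysis of variance of log values. This test can fail for a gene that differs in the apical parts alone, so failing it does not show that a gene was unaltered.

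The genes named in the labels had values in the labelled direction. The deposited value of B'γ was -0.69 in b'γ, -0.46 in b'γζ, -0.72 in b'γ sid2 and 0.35 in complemented b'γ. B'ζ fell in b'γζ (-2.59), and ICS1 rose in b'γ (3.18) and had -0.97 in b'γ sid2. Of the 3 senescing-leaf markers, SAG12 rose by 13.02 and ORE1 by 3.76 in b'γ, where NYE1 had 1.82, and none of the 3 was 2-fold higher in another line. Of the 3 epidermis and trichome markers listed, FDH (-1.78) and ATML1 (-1.51) fell in b'γ. Of 4 mesophyll markers, 3 were at least 2-fold lower in b'γ, 2 in b'γζ, 2 in b'γ sid2 and 3 in complemented b'γ. Among these only LHCB2.1 fell, in all 4 lines (-1.81 in b'γ and -2.59 in complemented b'γ). RBCS1A had -0.67 in b'γ and 0.13 to 0.65 in the other lines. Both myrosin cell markers were at least 2-fold lower in b'γ and at least 2-fold higher in b'γ sid2, with none of these values past the test. Of the 4 guard cell markers KAT1 rose in b'γ (1.38), while FAMA had 0.27, MYB60 -0.59 and SLAC1 -0.66 there. Of the 4 xylem markers XCP1 had 1.49 in b'γ without passing (SE 1.81). IRX3 had -0.15, IRX1 -0.08 and IRX5 -0.56 there. None of the 4 phloem markers was 2-fold in b'γ. The part of these markers in the results below was not tested, and in such bulk samples fewer cells of a type and less RNA per cell cannot be told apart.

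The start regions of 4 genes are shown because they carry the pattern of the report: the genes with the largest rises in b'γ (GSTU3 and GSTU11) and those with the lowest values there (GSTU26 and GSTF4). Each runs from 250 bases before to 50 bases after the gene start, 5′ to 3′ on the strand of the gene, read from the RefSeq genome of build TAIR10.1. Capitals mark the letters TGACG, the core bound by TGA factors, and TTGAC, the core bound by WRKY factors, on either strand (CGTCA and GTCAA on the other).
GSTU3, chr2:12629591-12629890, minus strand: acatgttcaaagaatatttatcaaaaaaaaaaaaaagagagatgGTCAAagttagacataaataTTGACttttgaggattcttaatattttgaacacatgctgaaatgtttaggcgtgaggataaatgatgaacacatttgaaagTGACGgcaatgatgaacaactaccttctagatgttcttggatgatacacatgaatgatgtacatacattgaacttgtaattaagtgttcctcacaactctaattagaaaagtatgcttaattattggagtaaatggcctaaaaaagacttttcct
GSTU11, chr1:26338769-26339068, minus strand: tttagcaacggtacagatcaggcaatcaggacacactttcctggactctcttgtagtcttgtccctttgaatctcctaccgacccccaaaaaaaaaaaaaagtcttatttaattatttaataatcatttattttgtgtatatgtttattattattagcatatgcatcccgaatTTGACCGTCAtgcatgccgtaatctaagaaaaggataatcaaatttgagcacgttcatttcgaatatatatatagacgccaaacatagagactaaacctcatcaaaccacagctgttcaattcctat
GSTU26, chr1:5875045-5875344, plus strand: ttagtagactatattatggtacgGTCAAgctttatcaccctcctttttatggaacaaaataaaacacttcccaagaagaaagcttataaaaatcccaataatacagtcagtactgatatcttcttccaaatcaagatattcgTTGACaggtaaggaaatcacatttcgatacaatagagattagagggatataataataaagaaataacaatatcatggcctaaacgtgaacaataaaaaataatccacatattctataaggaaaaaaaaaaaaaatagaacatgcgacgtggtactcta
GSTF4, chr1:666422-666721, minus strand: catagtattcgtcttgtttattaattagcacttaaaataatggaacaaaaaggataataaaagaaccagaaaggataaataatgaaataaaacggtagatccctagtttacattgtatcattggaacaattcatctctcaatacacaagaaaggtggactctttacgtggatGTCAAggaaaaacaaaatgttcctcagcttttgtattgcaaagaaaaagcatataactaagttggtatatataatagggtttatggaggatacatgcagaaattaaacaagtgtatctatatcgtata

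GSTU3 held TGACG with its first base at -105 from the gene start, and GSTU11 held it, as CGTCA, at -72, directly after a TTGAC. The windows of GSTU26 and GSTF4 held no TGACG. Over the family, 17 of 48 windows (35.4%) held TGACG, against 23.1% of the windows of 27443 protein-coding genes. TGACG was found in 6 of the 17 genes that were 2-fold higher in b'γ and in 11 of the other 31. TTGAC was found in 28 of 48 windows (58.3%), against 50.5% of all protein-coding genes, and in 12 of those 17 genes and 16 of the other 31. The G-box letters CACGTG were found in 7 of 48 (14.6%), against 7.68%. TGACG and TTGAC overlap as TTGACG, which 2 of 48 windows held, against 8.79% of all. These are matches of letters and not sites of binding.

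In b'γ, more transferase genes rose than fell. Of the 48 genes, 17 were at least 2-fold higher than wild type, where 17.0% of all listed genes were, and 14 rose, where 7.86% of listed genes did. Only 4 were at least 2-fold lower, where 16.2% of listed genes were, and 1 fell, where 6.38% did. The median value was 0.27 over the 48 genes and 0.02 over all listed genes. The tau class held 10 of the 17, the phi class 4, the zeta class 1 and the unclassed genes 2. Nearest the 2-fold limit were DHAR3 inside it (-1.08) and GSTU28 outside it (0.95).

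**Figure D1:**
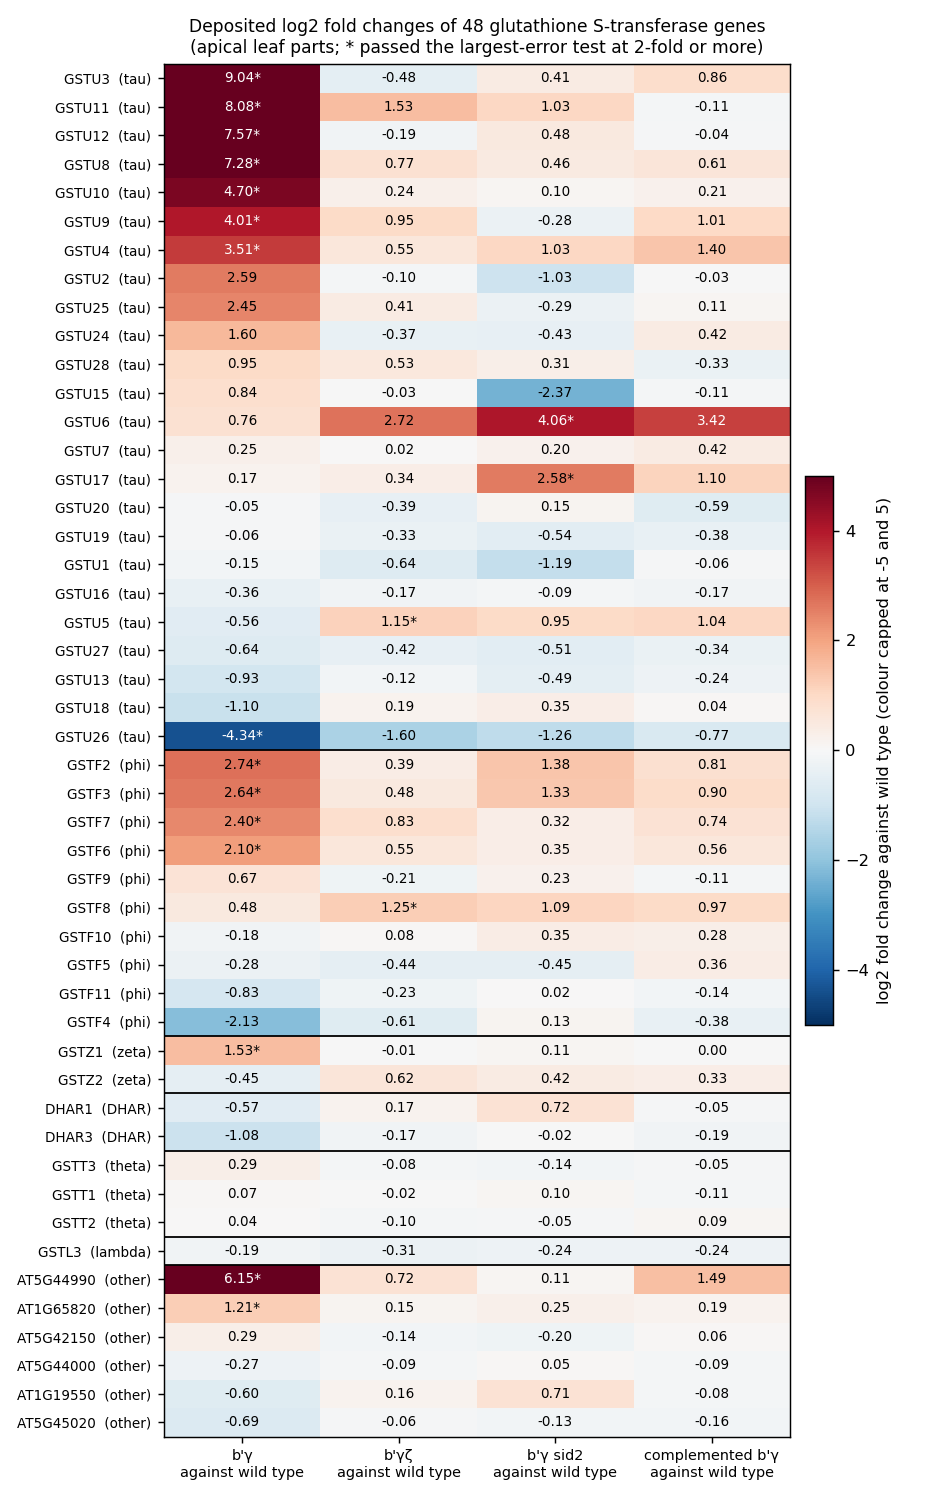
Deposited log2 fold changes (number and colour, log2 scale) of all 48 transferase genes (rows, by class) in apical parts, in columns from b'γ on the left to complemented b'γ on the right, each line against wild type; an asterisk marks genes that were at least 2-fold and passed the largest-error test. The b'γ column holds 14 rises and 1 fall, and the complemented column holds no asterisk.

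The largest rises were in the tau class, whose members are known for conjugating herbicides and other foreign compounds. The deposited value of GSTU3 was 9.04 in b'γ, -0.48 in b'γζ, 0.41 in b'γ sid2 and 0.86 in complemented b'γ. GSTU11 had deposited values of 8.08 in b'γ, 1.53 in b'γζ, 1.03 in b'γ sid2 and -0.11 in complemented b'γ. Its neighbour GSTU12 had 7.57 in b'γ, -0.19 in b'γζ, 0.48 in b'γ sid2 and -0.04 in complemented b'γ. All of these genes rose in b'γ, with intervals of 5.10 to 12.98 for GSTU3, 5.46 to 10.71 for GSTU11 and 5.24 to 9.90 for GSTU12, and none of them passed in another line.

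For GSTU8 the deposited value was 7.28 in b'γ (interval 4.96 to 9.60), 0.77 in b'γζ, 0.46 in b'γ sid2 and 0.61 in complemented b'γ. GSTU10 had 4.70 in b'γ (interval 3.46 to 5.93), 0.24 in b'γζ, 0.10 in b'γ sid2 and 0.21 in complemented b'γ. GSTU10 overlaps a neighbouring gene by 21 bases on the same strand, where reads cannot be assigned to one of them. GSTU9 had 4.01 in b'γ (interval 1.19 to 6.84), 0.95 in b'γζ, -0.28 in b'γ sid2 and 1.01 in complemented b'γ. GSTU4 had 3.51 in b'γ (interval 1.79 to 5.22), 0.55 in b'γζ, 1.03 in b'γ sid2 and 1.40 in complemented b'γ. GSTU8, GSTU10, GSTU9 and GSTU4 rose in b'γ and in no other line.

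A further 3 tau genes were 2-fold higher in b'γ without passing the test. GSTU2 stood at a deposited 2.59 in b'γ, -0.10 in b'γζ, -1.03 in b'γ sid2 and -0.03 in complemented b'γ. GSTU25 had 2.45 in b'γ, 0.41 in b'γζ, -0.29 in b'γ sid2 and 0.11 in complemented b'γ. GSTU24 had 1.60 in b'γ, -0.37 in b'γζ, -0.43 in b'γ sid2 and 0.42 in complemented b'γ. GSTU24 and GSTU25 are known for acting on the explosive trinitrotoluene. Their largest allowed SE was wide, 3.73 for GSTU2, 2.81 for GSTU25 and 3.40 for GSTU24, and all 3 passed when the lines were taken to differ as much in basal as in apical parts (equal-parts variance).

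In the phi class, 4 genes rose in b'γ, all by less than the leading tau genes. GSTF2, which is known to bind the defence compound camalexin, was deposited at 2.74 in b'γ, 0.39 in b'γζ, 1.38 in b'γ sid2 and 0.81 in complemented b'γ. GSTF3 had 2.64 in b'γ, 0.48 in b'γζ, 1.33 in b'γ sid2 and 0.90 in complemented b'γ. Their intervals in b'γ were 1.72 to 3.75 for GSTF2 and 1.62 to 3.67 for GSTF3. The coding sequences of the pair are 94.5% identical with runs of up to 74 identical bases, so the split of reads between them is uncertain, and GSTF2 also overlaps a gene on the opposite strand.

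GSTF7, a gene known to be induced by pathogens, was deposited at 2.40 in b'γ, 0.83 in b'γζ, 0.32 in b'γ sid2 and 0.74 in complemented b'γ. GSTF6, which has been placed in camalexin synthesis, had 2.1 in b'γ, 0.55 in b'γζ, 0.35 in b'γ sid2 and 0.56 in complemented b'γ. Both rose in b'γ, with intervals of 1.36 to 3.44 for GSTF7 and 1.03 to 3.16 for GSTF6. They are 94.7% identical in coding sequence, with runs of up to 116 identical bases, so their split is uncertain too.

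Outside these classes, 3 more genes rose in b'γ. AT5G44990, described in the authors' deposited table as a member of the transferase family, had 6.15 in b'γ (interval 4.02 to 8.29), 0.72 in b'γζ, 0.11 in b'γ sid2 and 1.49 in complemented b'γ. GSTZ1, an isomerase of tyrosine breakdown, had 1.53 in b'γ, -0.01 in b'γζ, 0.11 in b'γ sid2 and 0.00 in complemented b'γ. Its interval in b'γ was 0.50 to 2.56, and centred on reference genes its value was 1.37 and no longer passed. AT1G65820, whose product belongs to the microsomal transferases, had 1.21 in b'γ (interval 0.51 to 1.91), 0.15 in b'γζ, 0.25 in b'γ sid2 and 0.19 in complemented b'γ. The neighbour of GSTZ1, GSTZ2, was not 2-fold from wild type in any line.

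Going down in b'γ, GSTU26 stood apart. Its deposited value was -4.34 in b'γ, -1.60 in b'γζ, -1.26 in b'γ sid2 and -0.77 in complemented b'γ, and it fell in b'γ (interval -5.79 to -2.89). The value was below 0 in all 4 lines and at least 2-fold in all but complemented b'γ, with the 3 smaller values not past the test. GSTF4 had -2.13 in b'γ, -0.61 in b'γζ, 0.13 in b'γ sid2 and -0.38 in complemented b'γ. GSTU18 had -1.10 in b'γ, 0.19 in b'γζ, 0.35 in b'γ sid2 and 0.04 in complemented b'γ. DHAR3, the plastid dehydroascorbate reductase, had -1.08 in b'γ, -0.17 in b'γζ, -0.02 in b'γ sid2 and -0.19 in complemented b'γ. GSTF4, GSTU18 and DHAR3 did not pass the largest-error test, with intervals of -4.83 to 0.56 for GSTF4, -2.58 to 0.38 for GSTU18 and -2.46 to 0.31 for DHAR3.

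**Figure D2:**
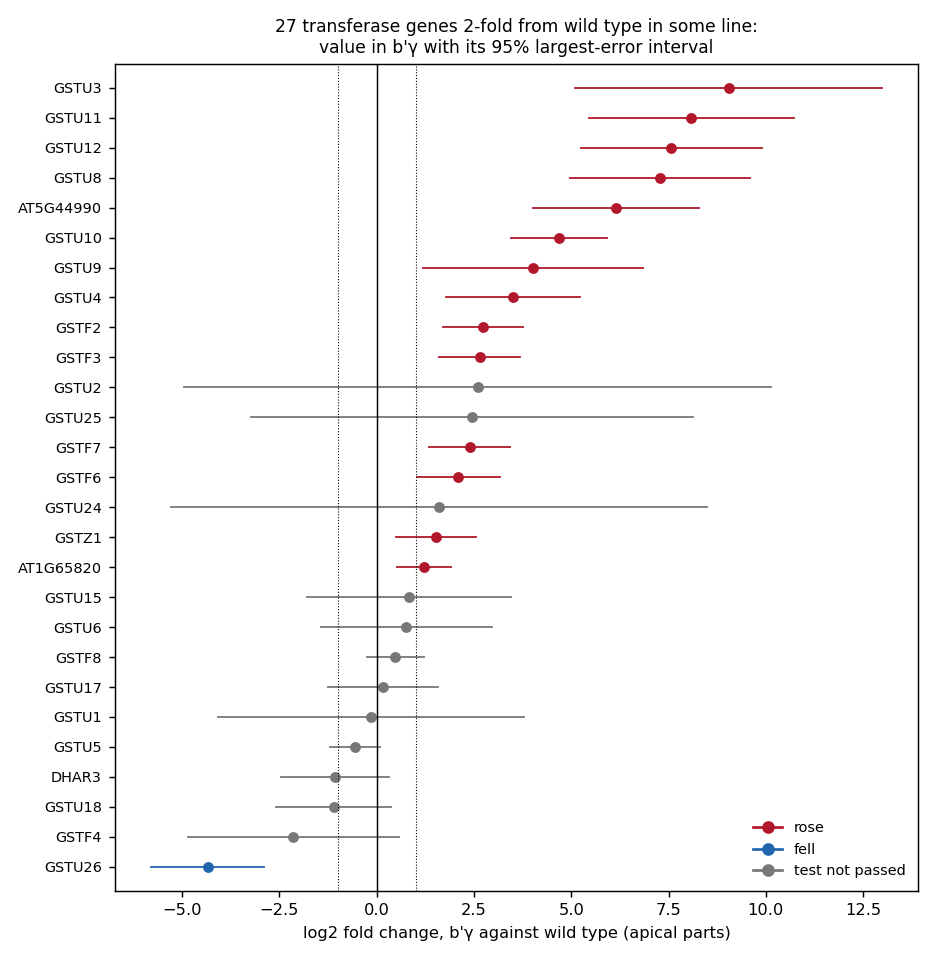
Log2 fold change in b'γ against wild type (points, apical parts) of the 27 genes that were at least 2-fold from wild type in some line, with 95% intervals from the largest allowed SE; dotted lines stand at 2-fold. GSTU3 lies highest at 9.04 and GSTU26 lowest at -4.34, and GSTU2, GSTU25 and GSTU24 have intervals that span 0.

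In the other lines, fewer of the 48 genes were at least 2-fold higher than in b'γ. Their share was 8.33% in b'γζ, 14.6% in b'γ sid2 and 12.5% in complemented b'γ. Each of these shares was above that of all listed genes, a difference that was not tested. In b'γζ, 4 of 48 genes were at least 2-fold higher, where 4.69% of listed genes were, and 2 rose, where 1.17% did. There, 1 gene was 2-fold lower, where 2.92% of listed genes were, and 0 fell (0.647% of listed genes). In b'γ sid2, 7 were higher (6.55% of listed genes) and 4 lower (5.56%), of which 2 rose (2.51%) and 0 fell (2.54%). In complemented b'γ, 6 were higher (2.63%) and 0 lower (2.22%), and 0 rose (0.285%) or fell (0.433%). At an unadjusted p under 0.05 in the largest-error test, the counts at 0 became 1 lower in b'γζ, 0 lower in b'γ sid2, and 2 higher and 0 lower in complemented b'γ. With the equal-parts variance, they became 1 lower in b'γζ, 3 lower in b'γ sid2, and 2 higher and 0 lower in complemented b'γ.

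The median of the 48 genes was -0.02 in b'γζ (-0.01 over all listed genes), 0.12 in b'γ sid2 (0.02) and 0.02 in complemented b'γ (0.00). Nearest the 2-fold limit were GSTU5 (1.15) and GSTU9 (0.95) in b'γζ, GSTU11 (1.03) and GSTU5 (0.95) in b'γ sid2, and GSTU9 (1.01) and GSTF8 (0.97) in complemented b'γ. Of the 17 genes higher in b'γ, 10 were 2-fold in none of the other lines and 6 were 2-fold higher in at least 1 of them. These shares were not computed for all listed genes higher in b'γ, so the counts do not set transferases apart.

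**Figure D3:**
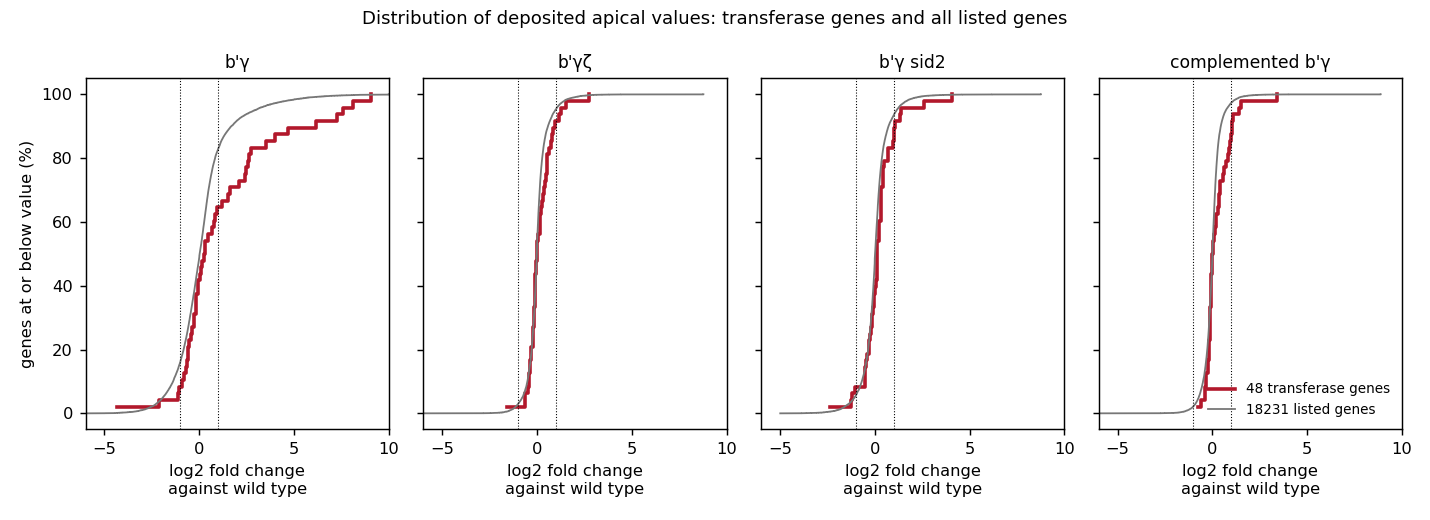
Cumulative share of genes (%) by deposited log2 fold change against wild type, with 1 panel for each line, for the 48 transferase genes and all 18231 listed genes; values beyond the axis are drawn at its edge, and dotted lines stand at 2-fold. Above the upper 2-fold line lie 17 of 48 transferase genes in b'γ, 4 in b'γζ, 7 in b'γ sid2 and 6 in complemented b'γ, against 17.0%, 4.69%, 6.55% and 2.63% of all listed genes in the same order of lines.

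A small group had another order, with higher values in the other lines than in b'γ. GSTU6 was deposited at 0.76 in b'γ, 2.72 in b'γζ, 4.06 in b'γ sid2 and 3.42 in complemented b'γ. It rose in b'γ sid2 only (interval 1.87 to 6.26), and did not pass after adjustment in b'γζ (0.52 to 4.91) or complemented b'γ (1.22 to 5.61). GSTU5, the gene next to it, had -0.56 in b'γ, 1.15 in b'γζ, 0.95 in b'γ sid2 and 1.04 in complemented b'γ, and rose in b'γζ (interval 0.51 to 1.78). GSTF8, known as an early marker of oxidative and salicylic acid stress, had 0.48 in b'γ, 1.25 in b'γζ, 1.09 in b'γ sid2 and 0.97 in complemented b'γ. It rose in b'γζ (interval 0.52 to 1.98) and did not pass after adjustment in b'γ sid2 (0.36 to 1.82).

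GSTF8 overlaps a gene on the same strand by 516 bases, where reads cannot be assigned to one of them. GSTU17, a gene with a known part in light and stress signalling, had 0.17 in b'γ, 0.34 in b'γζ, 2.58 in b'γ sid2 and 1.10 in complemented b'γ, and rose in b'γ sid2 (interval 1.16 to 4.01). It overlaps GSTU18 by 71 bases on the same strand. The values against wild type share 1 set of wild-type pools, which the contrasts with b'γ below do not use.

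Lower in b'γ sid2 was GSTU15, with 0.84 in b'γ, -0.03 in b'γζ, -2.37 in b'γ sid2 and -0.11 in complemented b'γ. GSTU1 had -0.15 in b'γ, -0.64 in b'γζ, -1.19 in b'γ sid2 and -0.06 in complemented b'γ. Neither passed in b'γ sid2, where the interval was -4.98 to 0.25 for GSTU15 and -5.12 to 2.74 for GSTU1.

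The 21 genes that were 2-fold from wild type in no line ranged from -0.93 to 0.95 in b'γ and -0.44 to 0.62 in b'γζ. Their range was -0.54 to 0.72 in b'γ sid2 and -0.59 to 0.42 in complemented b'γ. They comprised 7 tau, 4 phi and 4 unclassed genes, all 3 theta genes, and GSTZ2, DHAR1 and GSTL3. The theta genes, GSTT1, GSTT2 and GSTT3, stayed between 0.04 and 0.29 in b'γ and between -0.14 and 0.10 in the other lines. GSTL3 was between -0.31 and -0.19 in all 4 lines. DHAR1, the cytosolic dehydroascorbate reductase, had -0.57 in b'γ, 0.17 in b'γζ, 0.72 in b'γ sid2 and -0.05 in complemented b'γ. The adjoining AT1G19550 had -0.60 in b'γ, 0.16 in b'γζ, 0.71 in b'γ sid2 and -0.08 in complemented b'γ. Aligned to DHAR1, 93.1% of its coding bases are the same, with runs of up to 148 identical bases, so reads cannot be assigned with certainty to either.

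Set against b'γ itself, the comparison asks which of the values in b'γ differ when B'ζ or ICS1 is also lesioned or B'γ is put back. In b'γζ, 17 of 48 genes were at least 2-fold lower than in b'γ, where 14.5% of listed genes were, and 13 fell, where 6.14% did. There, 6 were at least 2-fold higher (13.8% of listed genes) and 2 rose (4.48%). In b'γ sid2, 18 were lower (15.8%) and 10 fell (7.42%), while 9 were higher (16.1%) and 4 rose (6.71%). In complemented b'γ, 18 were lower (15.1%) and 12 fell (6.6%), while 5 were higher (12.9%) and 2 rose (4.36%). These contrasts share the b'γ pools. Since 17 of the genes were chosen for being high in b'γ, a lower value of those in another line is partly fixed by that choice. Counting over all 48 does not remove this. The 17 genes lower in b'γζ are those same 17, and most of those lower in the other 2 lines are among them.

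Of the 17 genes higher in b'γ than in wild type, 16 were at least 2-fold lower than b'γ in all 3 other lines, and 8 fell in all 3. AT1G65820 was the exception in b'γ sid2, at a difference of -0.96. The b'γ value that chose these 17 genes is also the one subtracted in each contrast. The same share was not computed for all listed genes higher in b'γ, so these counts do not set transferases apart from other such genes. The difference of GSTU12 was -7.76 in b'γζ (interval -10.09 to -5.44), -7.09 in b'γ sid2 (-9.42 to -4.76) and -7.62 in complemented b'γ (-9.94 to -5.29). GSTU10 differed by -4.46 in b'γζ, -4.60 in b'γ sid2 and -4.49 in complemented b'γ, with an SE of 0.61 each. GSTU3, GSTU11, GSTU8, AT5G44990, GSTF7 and GSTF6 also fell in all 3 lines.

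GSTF2 and GSTF3 fell in b'γζ and in complemented b'γ but did not pass in b'γ sid2. The difference of GSTF2 was -2.35 in b'γζ, -1.36 in b'γ sid2 and -1.93 in complemented b'γ (SE 0.50 each). GSTF3 had -2.16 in b'γζ, -1.31 in b'γ sid2 and -1.74 in complemented b'γ (SE 0.51 each). The values in b'γ sid2 were the smallest of the 3 for both genes, and the differences between those 3 contrasts were not tested. GSTU9 fell against b'γ in b'γ sid2 only, at -4.29 (interval -7.11 to -1.46), and had -3.06 in b'γζ (-5.89 to -0.24) and -3.00 in complemented b'γ (-5.83 to -0.18), neither past the adjusted test.

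Relative to b'γ, GSTU26 and GSTU5 rose in all 3 lines. GSTF4 was also at least 2-fold higher in all 3, with 1.52 in b'γζ, 2.26 in b'γ sid2 and 1.75 in complemented b'γ. So was GSTU18, with 1.28 in b'γζ, 1.45 in b'γ sid2 and 1.14 in complemented b'γ. Neither GSTF4 nor GSTU18 passed the test there. GSTU26 rose by 2.74 in b'γζ, by 3.08 in b'γ sid2 and by 3.57 in complemented b'γ, with an SE of 0.72 each. GSTU5 rose by 1.70 in b'γζ, by 1.5 in b'γ sid2 and by 1.59 in complemented b'γ, with an SE of 0.31. In b'γ sid2, GSTU6 rose by 3.30 (interval 1.10 to 5.50) and GSTU17 by 2.42 (0.99 to 3.84). Against b'γ, GSTU6 had 1.96 in b'γζ and 2.66 in complemented b'γ without passing. GSTF8 was not 2-fold against b'γ in any of the 3 lines, with 0.77 in b'γζ. DHAR3 (1.06), DHAR1 (1.29) and AT1G19550 (1.31) were at least 2-fold higher in b'γ sid2 than in b'γ. GSTZ2 (1.06) was so in b'γζ, and none of these values passed. GSTU5 and GSTU26 were thus higher in all 3 other lines than in b'γ, although their values against wild type had opposite signs in those lines.

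Many of these genes lie side by side. In all, 33 of the 48 genes fell into 12 groups of neighbours, 15 stood alone, and 8 of the groups held a gene that was 2-fold in some line. The largest group is the run of 7 tau genes from GSTU7 to GSTU1 at chr2:12617936-12632538, all on the minus strand. In b'γ, GSTU3 and GSTU4 rose and GSTU2 was 2-fold higher, GSTU7, GSTU6 and GSTU1 were between -0.15 and 0.76, and GSTU5 had -0.56. In the other lines GSTU6 was the highest of the run. GSTU5 was also 2-fold higher in b'γζ, GSTU4 in b'γ sid2, and both in complemented b'γ. GSTU3 and its neighbours GSTU4 and GSTU2 are 81.9% and 80.3% identical in coding sequence.

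The phi genes GSTF7, GSTF6, GSTF5 and GSTF4, at chr1:658578-666471, differed along the run. GSTF7 and GSTF6 rose in b'γ, GSTF5 had -0.28 and GSTF4 had -2.13 there. In the group of GSTU24, GSTU25 and GSTU26 at chr1:5869543-5876620, the first 2 were 2-fold higher in b'γ and GSTU26 fell. GSTU12 and GSTU11, at chr1:26334250-26338818, both rose. In the pair of GSTU18 and GSTU17, at chr1:3395551-3398358, GSTU18 was low in b'γ and GSTU17 was high in b'γ sid2. Neighbours thus had both like and opposite values, in the same samples.

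**Figure D4:**
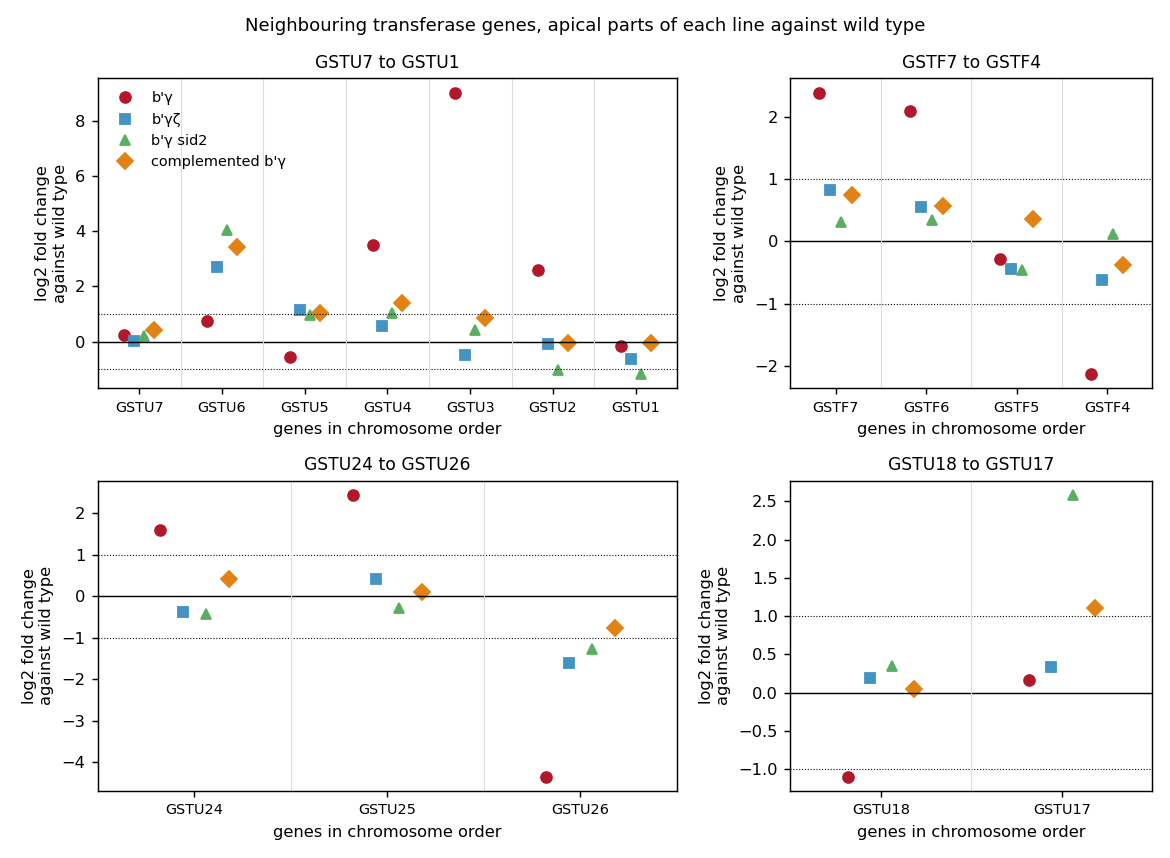
Deposited log2 fold changes against wild type (apical parts) of genes in 4 groups of neighbours, placed in chromosome order, with 1 marker for each line; dotted lines stand at 2-fold. In the run of 7 tau genes, b'γ is highest at GSTU3 (9.04), and the other lines are highest at GSTU6 (2.72 to 4.06).

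The deposited table also gives a test of whether the line differences depend on the leaf part. The corrected interaction p was under 0.05 for 23 of the 48 genes (47.9%), where 42.4% of listed genes passed. It was under 0.05 for 12 of the 17 genes higher in b'γ. Those 17 were chosen by apical values, and the share among all listed genes chosen in that way was not computed. The smallest was that of GSTU12 (3.98e-14), followed by GSTU10 (5.73e-10) and GSTU18 (2.97e-09). GSTF2, GSTF3, GSTF6 and AT5G44990 rose in b'γ with an interaction p in the authors' deposited table of 0.330 for GSTF2, 0.171 for GSTF3, 0.142 for GSTF6 and 0.382 for AT5G44990, which does not show that their basal parts responded alike. The corrected p for leaf part itself was under 0.05 for 32 of 48 genes (54.1% of listed genes).

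Beside the transferases, 25 of 27 genes on lists of glutathione metabolism were listed. In b'γ, 6 of them were 2-fold higher (17.0% of listed genes) and 2 lower (16.2%), and 1 rose (7.86%), so the share that rose was not above that of all listed genes. The gene that rose was ABCC3, a vacuolar pump of glutathione conjugates, with 2.09 in b'γ (SE 0.50), 1.04 in b'γζ, 0.23 in b'γ sid2 and 0.51 in complemented b'γ. Its relative ABCC1 had 1.22 in b'γ without passing. GPX2 and GPX4, of the glutathione peroxidase-like enzymes, had 1.81 and 1.82 in b'γ, and GPX7, a plastid member, had -1.56. GR1, a glutathione reductase, had 1.09, and GGT1, which breaks down glutathione outside the cell, had 1.07. GGCT2;2, a glutathione-degrading cyclotransferase, had -1.52. GSH1, the first enzyme of glutathione synthesis, had 0.92 in b'γ and GSH2, the second, had -0.02.

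In the other lines, 2 of the 25 were 2-fold higher (4.69% of listed genes) and 1 lower (2.92%) in b'γζ, 0 higher (6.55%) and 1 lower (5.56%) in b'γ sid2, and none was 2-fold in complemented b'γ. GGCT2;1, which also degrades glutathione, had 0.88 in b'γ, -1.06 in b'γζ, -1.60 in b'γ sid2 and -0.36 in complemented b'γ. GPX4 had 1.15 in b'γζ. Of 5 TGA factors listed, TGA1 rose in b'γ (1.15, SE 0.25), TGA5 had 1.03 there without passing, and the 5 were between -0.69 and 0.04 in the other lines. The lambda gene GSTL1, which the description rule did not take and which was added after its values were seen, rose in b'γ by 5.76 and had 0.43 in b'γζ, -0.05 in b'γ sid2 and 0.84 in complemented b'γ. The lambda gene GSTL2 had -0.69 in b'γ.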

How the data were processed

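Polyadenylated RNA of 50 pools was sequenced with a strand-specific kit. Per the submitters' processing notes, bcl2fastq and DESeq were used with build TAIR10, and versions were not stated. The authors deposited 1 table of 18231 genes with 4 columns of log2 fold changes and 6 columns of p-values, and samples were grouped by the lines in the labels. The header names no log base, and base 2 was taken from the steps of low values. The table starts from genes past the authors' corrected genotype p-value, and the number tested (25801) was derived from the deposited corrected p-value and its rank.

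Members and lists were chosen with earlier results of these data known, and 1 locus and some start regions are not reported here. Named genes were all members at least 2-fold from wild type in some line. Deposited p-values were turned into F values on 4 and 40 degrees of freedom, and these with the fold changes limit how large the residual variance can be (line means were allowed a span of 20 log2 units). The equal-parts alternative takes basal line differences to be as large as apical ones. The test was checked on simulated data. There, all groups of a gene had the same spread and the p-values came from such an analysis of variance. Where both hold the test is conservative, so that a gene that did not pass may still differ. Whether the yellowing apical b'γ pools had the same spread as the others was not tested, so the check does not cover that case. A contrast with b'γ subtracts its deposited value from that of the other line. Alternatives were a limit of 1.5-fold, a corrected genotype p under 0.01, centring on 5 listed reference genes, a rule by symbol, and, added later, 1 gene of each pair at least 90% identical. Symbols, starts and sequences came from RefSeq TAIR10.1, whose symbols can differ from those deposited. Motif shares count 300-base windows on both strands. Neighbours had locus numbers within 60. Computation used Python 3.11.15, numpy 2.4.6, scipy 1.17.1, pandas 2.3.3, Biopython 1.88 and matplotlib 3.10.9. The planned protein sequences were not used here.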

Additional observations from a re-analysis of the deposited data

Results flagged for a closer look

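For 17 of the 27 named genes, the authors' deposited corrected p for the interaction of line and leaf part was under 0.05, so the line differences differed between apical and basal parts. The smallest values were 3.98e-14 for GSTU12, 5.73e-10 for GSTU10, 2.97e-09 for GSTU18, 1.4e-07 for GSTU3, 3.99e-07 for AT1G65820, 1.83e-06 for DHAR3 and 2.22e-06 for GSTZ1. GSTU24 had 4.68e-05, GSTU2 had 4.73e-05, GSTU11 had 0.0022, GSTU25 had 0.00499 and GSTU15 had 0.00704. GSTU26 had 0.0112, GSTF4 and GSTU8 each had 0.0136, GSTU9 had 0.0382 and GSTF7 had 0.0435. Over all listed genes, 42.4% had such a p under 0.05. The named genes were chosen by apical values, and the share among all listed genes chosen in that way was not computed. The deposited fold changes cover apical parts alone, so which lines differ in which part cannot be read from these values.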

How the results depend on the processing

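No value at least 2-fold changed sign under any alternative, but this could not have come out otherwise. Only centring alters a value, and its shifts were far smaller than a 2-fold difference. At a 1.5-fold limit, 9 genes were lower in b'γ, 9 higher and 3 lower in b'γζ, and 12 higher and 2 lower in complemented b'γ; against b'γ, 13 were higher in b'γζ and 11 in complemented b'γ. Under the equal-parts variance, 4 fell in b'γ, 1 fell in b'γζ, 5 rose and 3 fell in b'γ sid2, and 2 rose in complemented b'γ; against b'γ, 5 rose in b'γζ, 9 rose and 18 fell in b'γ sid2, and 5 rose in complemented b'γ. These calls grow by construction, since that variance is smaller than the largest one.

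Centring on reference genes, whose median was 0.16 in b'γ, put the median of all listed genes there at -0.14. Then 2 genes fell in b'γ, and against b'γ 11 were higher and 4 rose in b'γζ. The median over all listed genes also turned sign in b'γζ, at 0.09 after centring. Of 336 values of the 48 genes in the 7 comparisons, 23 turned sign, the largest of them 0.23 in size before centring. Single values were followed where a named gene was at least 2-fold in that comparison or any gene passed after centring. Of these values, 102 kept their side of the test, 9 no longer passed and 4 newly passed, and the cause was not tested. Those that newly passed, chosen after their values were seen, were GSTU13 in b'γ (-1.09), GSTF8 in b'γ sid2 (1.14), and GSTF8 (1.03) and GSTU13 (1.07) in b'γζ against b'γ. GSTZ1 lost its rise in b'γ, and against b'γ the falls of GSTF7, GSTF6, GSTZ1 and AT1G65820 in b'γζ, of GSTU4 in b'γ sid2, and of GSTF6, GSTZ1 and AT1G65820 in complemented b'γ were lost. The counts under a corrected genotype p of 0.01, the rule by symbol and 1 gene of each near-identical pair stayed within 1.5 times those reported. No paired analysis was possible because values per library were not used here, and leaving out each replicate was not run for the same reason. Depth is unknown, so no counting limit is given.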
